A study of Camelus dromedarius with 4 samples.

Results

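Translation initiation and elongation factors were taken from the authors' table of season means as every symbol beginning with EIF or EEF, and 65 of the 18152 listed symbols did so. A mean for both seasons was given for 60 of them, of 16053 symbols with means in all. A mean normalised read count of at least 10 in a season was reached by 56, of 13811 in all, and these 56 are compared below. EIF1AY, EIF4A1, EIF4B and EIF5A2 stayed under 10 in both seasons. EEF1AS, EIF4A3-B, EIF4E1B, EIF4EBP1 and EIF4H were listed with no means. The symbols were taken by name alone, but this set of names was chosen with earlier results of these data known.

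The study compared the supraoptic nucleus of dromedary camels between winter and summer by sequencing stranded, rRNA-depleted total RNA. The 4 libraries came from age-matched adult males of the Tergui breed, 2 of them slaughtered in winter at El Oued and 2 in summer at Ouargla, all without experimental treatment. Season, place of slaughter and individual animal cannot be told apart with 2 animals a season, and the dissected tissue held neurones, glia and vessels. In bulk tissue fewer cells of a type and less RNA per cell cannot be told apart either.

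Initiation begins when the eIF2 complex brings the initiator tRNA to the small ribosomal subunit, which eIF1, eIF1A and eIF3 help to hold open while it scans for a start codon. The mRNA is delivered through its cap by eIF4E, the scaffold eIF4G and the helicase eIF4A, and eIF5 and eIF5B then let the large subunit join. In elongation eEF1A brings aminoacyl-tRNA to the ribosome, the eEF1B subunits recharge eEF1A with GTP and eEF2 moves the ribosome along. Magnocellular neurones of the supraoptic nucleus make large amounts of vasopressin and oxytocin precursor, and phosphorylation of eIF2 or of eEF2 is a known way in which neurones slow protein synthesis. None of these data measure phosphorylation or translation itself.

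Between 4379162 and 6902037 reads per library were counted on gene models, but the gene models carry no names, so the table of season means was used. Each mean is the average over 2 libraries of whole reads divided by a size factor, and it was solved for whole numbers, which gives the reads of each library where only 1 pair fits. This was so for 20 of the 56 factors, while 26 had 2 or 3 possible pairs in a season and 10 of the most highly counted had more. The libraries are called A and B by the larger and smaller size factor of their season (1.33 and 0.946 in winter, 0.922 and 0.877 in summer), since the steps do not name the replicate. The recovered reads could not be traced back to the deposited count files. Of 4545 symbols with a single solution and at least 20 reads in each library, at most 3 had the same 4 counts in a gene model, and the reason was not tested. Every value per library and every fit below therefore rests on the table of means alone. Over the 7638 symbols with recovered reads and a mean of at least 10 the summer libraries stood furthest apart of all pairs, with a root mean square log2 difference of 1.56, against 0.748 between winter A and winter B. Over the 20 factors these distances were 0.608 and 0.533, and the largest was 0.736, between winter B and summer B.

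The cell type markers did not keep a constant level between the seasons. The summed normalised count of 5 astrocyte markers was 25882 in summer and 15358 in winter, almost all of it from GFAP (25074 and 14423). AQP4 had a log2 ratio of -1.01, while SLC1A2, SLC1A3 and ALDH1L1 had the higher mean in winter, so that the median log2 ratio of the 5 was 0.14. Of 5 neuronal markers 4 had the higher mean in winter, with a median log2 ratio of winter to summer of 0.76 and sums of 8176 and 8454. The corresponding sums of 5 oligodendrocyte markers were 33309 and 36989. Of the magnocellular markers OXT had means of 592 and 621, SIM1, POU3F2 and OTP were detected and AVP is not reported here. The pituitary markers POMC (1294 in summer and 738 in winter) and GH1 (464 and 1132) were also detected. The part of these differences in the values below was not tested.

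The log2 ratios of winter to summer of the 56 factors ran from -0.98 to 0.68, while the lowest over all symbols was -4.99. The quartiles lay closer together. The median log2 ratio of winter to summer was -0.10, beside -0.036 over all 13811 symbols, and the quartiles were -0.32 and 0.17 over the factors and -0.31 and 0.26 over all symbols. The winter mean was the higher in 21 factors and the summer mean in 35, and over all symbols the winter mean was higher in 46.2%. A difference of more than 1.5-fold was found in 7 factors, beside 22.3% of all symbols. Of these 7, EIF1 and EIF4G1 were higher in winter and EEF1A, EEF1A1, EIF1AD, EIF2B5 and EIF4EBP2 were higher in summer. No factor (0 of 56) was more than 2-fold apart, beside 7.26% of all symbols, and EIF1AD came nearest at 1.97-fold, passing 2-fold when season means were rescaled to equal totals. The season means carry no spread between animals, so these counts have no test.

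**Figure D1:**
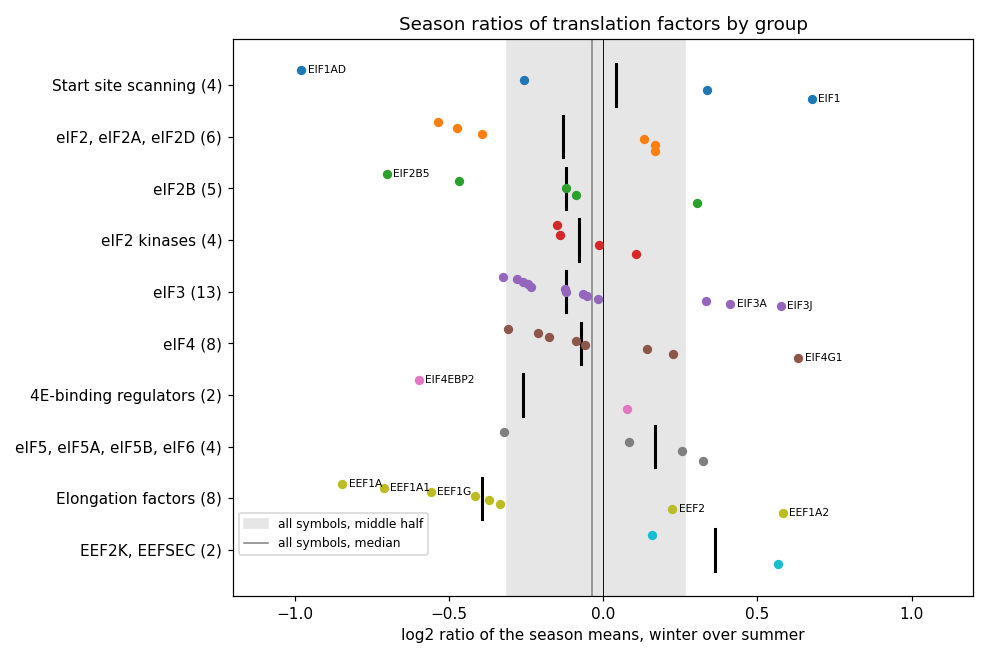
Log2 ratio of the winter to the summer mean (x axis) for 56 translation factors in 10 functional groups (y axis, number of factors in brackets); points are factors, black bars are group medians, and the grey band runs between the quartiles of all 13811 symbols, with a line at their median. The elongation factors have the lowest median, -0.39, and every point lies within 1 log2 unit of 0.

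Where the reads of every library were recovered, the seasons were compared by edgeR's quasi-likelihood test over all 7638 such symbols. None of the 20 factors (0) had an unadjusted p under 0.05, beside 1.99% of all symbols. The rule of the study, an unadjusted p under 0.05 and more than 2-fold, was met by 0 factors and by 1.68% of all symbols. An adjusted p under 0.05 was reached by 0 factors and by 0% of all symbols. DESeq2, limma-voom and edgeR's exact test also placed 0 of the 20 factors under an unadjusted p of 0.05. Of all 7638 symbols they placed 65, 118 and 123 there. Each winter library exceeded each summer library in 4 factors (EEFSEC, EIF1, EIF4E2 and EIF4G1), beside 13.3% of all symbols. Each summer library exceeded each winter library in 7 (EEF1A, EIF1AD, EIF2B1, EIF2B3, EIF2D, EIF3I and EIF4EBP2), beside 17.2% of all symbols. In the other 9 the seasons overlapped. The winter steps admit a single solution less often, so the recovered symbols may favour low winter means. The median fitted log2 change was -0.11 over all 7638 symbols and -0.047 over the 20 factors. The median ratio of the season means was -0.036 over all 13811 symbols. In a fit of symbols with both means under 100, chosen after the data were seen, the median change was -0.089 over 6030 symbols. Over 16 factors it was -0.12. The part of the uneven recovery in these medians was not tested. Without summer A, 1 factor (EEF1A) passed the rule of the study, beside 14.5% of all symbols, and without summer B 0 factors did, beside 15.2%. In these refits the spread comes from the winter pair alone, the lone summer library is assumed to vary like it, and 0 factors passed the adjusted threshold.

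**Figure D2:**
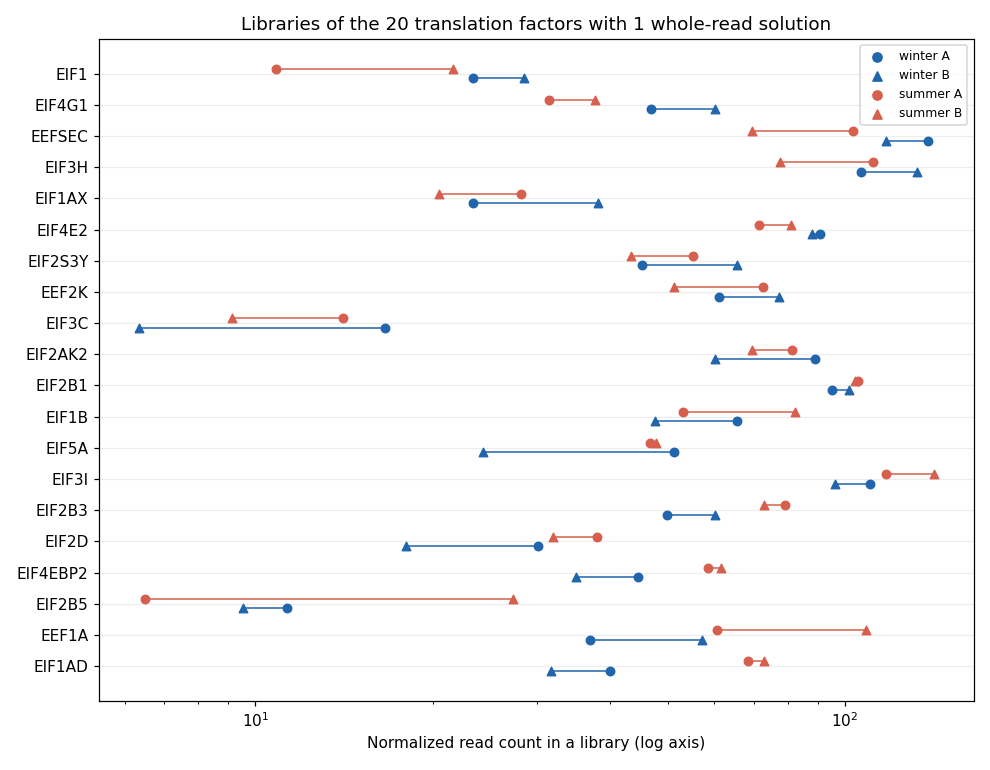
Normalised read count (x axis, log scale) in each of the 4 libraries for the 20 translation factors with a single whole-read solution (y axis), ordered by fitted change; blue is winter, red is summer, circles are library A, triangles library B, and lines join the libraries of a season. The blue and red lines share no values in 11 factors, among them EIF1AD at the bottom and EIF4G1 near the top, and overlap in 9.

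Among the factors that govern start site scanning, EIF1, which guards against initiation at the wrong codon, had normalised counts of 23.4 and 28.6 in winter, against 10.8 and 21.7 in summer. Both winter libraries were the higher, on 31, 27, 10 and 19 reads. Its fitted log2 fold change was 0.67 with a standard error of 0.69 and a 95% interval of -0.93 to 2.27 (edgeR's quasi-likelihood test, adjusted p = 0.982). EIF1AX, which fills the A site of the scanning subunit, had 23.4 and 38.1 in winter and 28.2 and 20.5 in summer, which overlapped. EIF1B, a close copy of EIF1, had 65.6 and 47.6 in winter and 53.1 and 82.1 in summer, which also overlapped. Reads that EIF1 and EIF1B may share were not measured, so both values are uncertain.

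EIF1AD, a relative of eIF1A that acts in maturation of the small ribosomal subunit, was the factor with the largest season ratio. Its normalised counts were 40.0 and 31.7 in winter and 68.3 and 72.9 in summer, from 53, 30, 63 and 64 reads. Both summer libraries were well above both winter libraries, with means of 35.9 ± 5.84 in winter and 70.6 ± 3.28 in summer (SD, n = 2 each). The fitted log2 fold change was -0.96 with a standard error of 0.42, an interval of -1.94 to 0.014 and a p of 0.0525, which adjusted to 0.982 (edgeR's quasi-likelihood test). Leaving out any single library kept it between -1.15 and -0.82. This was the lowest p of the 20 factors.

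The eIF2 complex carries the initiator tRNA as a ternary complex with GTP. The α subunit EIF2S1, whose phosphorylation blocks initiation, had means of 179 in winter and 235 in summer (log2 ratio -0.39). Its summer libraries were 259 and 211, and its winter libraries either 303 and 55.0 or 164 and 195, so that the seasons separate under the second pair alone. The β subunit EIF2S2 had means of 327 and 298, and its seasons overlapped under every possible pair. The γ subunit EIF2S3 had 254 and 353, a log2 ratio of -0.47, and separated under 1 of its 3 pairs. The symbol EIF2S3Y, named for a Y-linked copy of the γ subunit, had 45.3 and 65.6 in winter and 55.3 and 43.3 in summer, an overlap. Reads that EIF2S3 and EIF2S3Y may share were not measured. The α and γ subunits thus had the higher mean in summer and the β subunit in winter, with none of these differences shown beyond the spread of the animals.

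Of the factors that bring tRNA to the ribosome without eIF2, EIF2D, which also acts in recycling, had 30.2 and 18.0 in winter and 38.0 and 31.9 in summer. Both summer libraries were the higher, and the fitted log2 change was -0.51 with a standard error of 0.58 (interval -1.86 to 0.85). EIF2A had means of 245 in winter and 218 in summer, and its seasons overlapped under both possible pairs.

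The 5 subunits of eIF2B, which exchanges GDP for GTP on eIF2 and is the target of the integrated stress response, had a median log2 ratio of -0.12, and 4 of them had the higher mean in summer. EIF2B1 had 95.1 and 102 in winter and 105 and 104 in summer. These libraries did not overlap, but the fitted change was only -0.089 (interval -0.85 to 0.67). EIF2B3 had 49.8 and 60.3 in winter and 79.2 and 72.9 in summer, a log2 change of -0.47 with a standard error of 0.38 (interval -1.36 to 0.41). EIF2B5, the catalytic subunit, had 11.3 and 9.52 in winter and 6.51 and 27.4 in summer. Its season ratio of 1.63-fold rests on summer B with 24 reads, against 6 in summer A, and without summer B the log2 change was 0.68 in the other direction. EIF2B2 had means of 212 in winter and 172 in summer and EIF2B4 means of 340 and 370. The seasons of EIF2B2 overlapped under both its pairs, and those of EIF2B4 separated under 1 of its 3 pairs, with summer the higher. None of the 3 subunits with a fit (EIF2B1, EIF2B3 and EIF2B5) was shown to differ between seasons.

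The 4 kinases that phosphorylate eIF2α had the narrowest ratios of any group with 4 or more factors, from -0.15 to 0.11. EIF2AK2, the kinase activated by double-stranded RNA, had 89.0 and 60.3 in winter and 81.3 and 69.5 in summer, with an overlap, and the fitted log2 change was -0.0051 with an interval of -0.90 to 0.89. EIF2AK1, the haem-regulated kinase, had means of 286 in winter and 266 in summer. EIF2AK3 (PERK), the kinase of endoplasmic reticulum stress, had means of 423 and 469. Its summer libraries were 465 and 473, and its winter libraries 513 and 332, 374 and 472, or 234 and 611. EIF2AK4 (GCN2), which senses uncharged tRNA, had means of 497 and 548. In all 4 kinases the seasons overlapped under every possible pair of libraries.

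eIF3 is the largest initiation factor and holds the small subunit, eIF1, eIF5 and eIF4G together. Of its 13 measured subunits 10 had the higher mean in summer, with a median log2 ratio of -0.12 and a lowest ratio of -0.32 in EIF3I. The other 3 were EIF3A, EIF3H and EIF3J. EIF3A, the largest scaffold subunit, had means of 1471 in winter and 1106 in summer (log2 ratio 0.41), and its libraries could not be told apart. EIF3J, a loosely bound subunit, had means of 155 and 104 and the highest ratio of the complex, 0.58. Its summer libraries were 130 and 77.5, and its winter libraries either 254 and 56.1 or 114 and 196, so that the seasons overlapped under both. EIF3H had 106 and 132 in winter and 112 and 77.5 in summer, a fitted log2 change of 0.33 (interval -0.51 to 1.17), again with an overlap.

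The subunits with a higher mean in summer lay close to equality. EIF3I had 110 and 96.2 in winter and 117 and 141 in summer. Both its summer libraries were the higher, with a fitted log2 change of -0.32 and a standard error of 0.33 (interval -1.09 to 0.45). EIF3B, which binds the helicase side of the complex, had means of 297 in winter and 323 in summer and overlapped under every pair. EIF3C, a core subunit, had 22, 6, 13 and 8 reads in winter A, winter B, summer A and summer B, and its log2 interval ran from -1.93 to 2.02. The remaining 7 (EIF3D, EIF3E, EIF3F, EIF3G, EIF3K, EIF3L and EIF3M) had ratios between -0.28 and -0.052, and the seasons separated under 1 of the possible pairs in EIF3E, EIF3G, EIF3L and EIF3M.

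**Figure D3:**
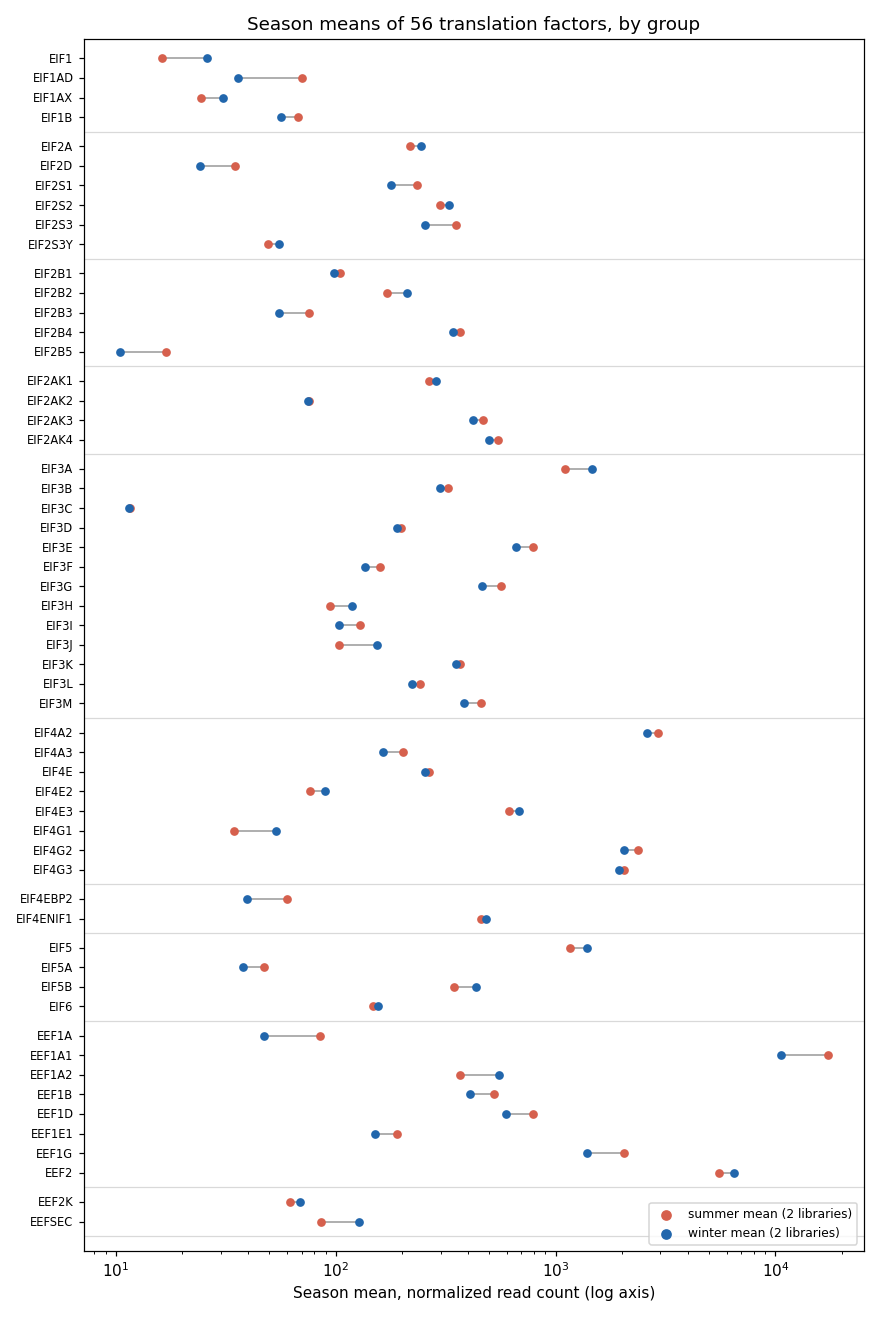
Mean normalised read count in summer (red) and winter (blue) on a log axis for the 56 translation factors (y axis, in the same 10 groups, separated by lines); each point is the authors' mean of 2 libraries and grey lines join the seasons. EEF1A1 at 17340.5 and 10592 and EEF2 at 5553 and 6487 point in opposite directions, and most pairs lie nearly on top of each other.

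Of the cap-binding group, EIF4E, the cap-binding protein itself, had means of 254 in winter and 265 in summer and overlapped under every pair. EIF4E2, which binds the cap without recruiting eIF4G, had 90.6 and 87.8 in winter and 71.6 and 80.9 in summer. Both winter libraries were the higher, but the fitted log2 change was 0.23 with a standard error of 0.35 (interval -0.58 to 1.03). EIF4E3, a further cap-binding relative, had means of 679 and 615.

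The scaffold EIF4G1 had 46.8 and 60.3 in winter and 31.4 and 37.6 in summer, from 62, 57, 29 and 33 reads. The winter libraries both exceeded the summer ones, with means of 53.5 ± 9.54 and 34.5 ± 4.36 (SD, n = 2 each). Its fitted log2 change was 0.62 with a standard error of 0.47 and an interval of -0.47 to 1.71 (edgeR's quasi-likelihood test, adjusted p = 0.982), and it stayed between 0.44 and 0.80 with each library left out. Its relatives had far higher counts and did not show the same ratio. Whether the gene model behind each symbol covers the whole gene was not examined. EIF4G3 had means of 1935 in winter and 2057 in summer. EIF4G2, which also serves initiation without eIF4E, had 2045 and 2366. The log2 ratios were -0.088 and -0.21, beside 0.63 for EIF4G1, and the difference between them was not tested, since the libraries of EIF4G2 and EIF4G3 could not be told apart.

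The helicase EIF4A2 had means of 2592 in winter and 2926 in summer (log2 ratio -0.17.) EIF4A3, which sits in the exon junction complex and not in eIF4F, had 164 and 204, a ratio of -0.31. The close copy EIF4A1 was under 10 in both seasons, and reads that EIF4A1 and EIF4A2 may share were not measured. Of the cofactors of the helicase, EIF4B was under 10 as well and EIF4H had no means, so no season ratio is given for either.

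The 4E-binding proteins compete with eIF4G for eIF4E and let go of it when mTOR phosphorylates them. EIF4EBP2, the form that predominates in brain, had 44.5 and 34.9 in winter and 58.6 and 61.6 in summer. Both summer libraries were above both winter libraries, with means of 39.7 ± 6.80 and 60.1 ± 2.12 (SD, n = 2 each). Its fitted log2 change was -0.58 with a standard error of 0.43 and an interval of -1.59 to 0.42 (edgeR's quasi-likelihood test, adjusted p = 0.982). EIF4EBP1 had no means. EIF4ENIF1, which carries eIF4E to the nucleus and to processing bodies, had means of 482 in winter and 457 in summer.

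Of the factors for subunit joining, EIF5, the GTPase activator of eIF2, had means of 1385 in winter and 1160 in summer. EIF5B, the GTPase that joins the subunits, had 433 and 346, a log2 ratio of 0.32, and separated under 1 of its 3 possible pairs, in which the winter libraries were 433 and 433 and the summer libraries 377 and 315. EIF6, which keeps the large subunit from joining early, had 156 and 147. EIF5A, which relieves stalled ribosomes and carries hypusine, had 51.3 and 24.3 in winter and 46.6 and 47.9 in summer. Its winter libraries lay on either side of both summer libraries. Reads that EIF5A and EIF5A2 may share were not measured.

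The elongation factors had the lowest median ratio of the groups, -0.39 over 8 symbols, and 6 of the 8 had the higher mean in summer. EEF1A1, the main carrier of aminoacyl-tRNA, had a mean of 17340.5 in summer and 10592 in winter, 1.64-fold. It alone gave 37.8% of the reads summed over all factors in summer and 27.5% in winter. The sum over all factors was 45846 in summer and 38582 in winter, and without EEF1A1 it was 28505 and 27990. The libraries of EEF1A1 could not be told apart, so its spread between animals is unknown. A second symbol, EEF1A, had 37.0 and 57.1 in winter and 60.7 and 108 in summer, with the seasons just apart. Its fitted log2 change was -0.86 with a standard error of 0.46 and an interval of -1.93 to 0.21 (adjusted p = 0.982, edgeR's quasi-likelihood test), and with 1 library left out it ranged from -1.21 to -0.38.

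The neuronal and muscle form EEF1A2 had the opposite sign. Its means were 553 in winter and 370 in summer (log2 ratio 0.58.) Its summer libraries were 280 and 459, and its winter libraries 920 and 186, 780 and 326, or 641 and 465, so that both winter libraries were above both summer libraries under the third pair alone. EEF1A1 and EEF1A2 encode closely related proteins, and the sequence behind the symbol EEF1A was not examined. Reads that the 3 may share were not measured. In the count files 20.2% to 26.9% of the tallied alignments had no unique position and stood apart from every gene model, so the 3 values are uncertain.

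EEF1G, EEF1D and EEF1B, subunits of the exchange factor for eEF1A, all had the higher mean in summer, as had EEF1E1. EEF1G, the scaffold subunit, had means of 1394 in winter against 2054 in summer (log2 ratio -0.56). EEF1D had 594 and 793, a ratio of -0.42. EEF1B had 408 and 528, a ratio of -0.37, and its seasons overlapped under all 6 possible pairs. EEF1E1, which belongs to the multi-tRNA synthetase complex and was grouped here by its name, had 151 and 190.0, with an overlap under both pairs. EEF2, the translocase, had 6487 and 5553, a ratio of 0.22. The eEF1B subunits and EEF2 thus had season ratios of opposite sign, which for EEF1G and EEF2 could not be set against the spread between animals.

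EEF2K, the kinase that inactivates eEF2, had 61.1 and 77.2 in winter and 72.7 and 51.3 in summer, an overlap. EEFSEC, which delivers selenocysteine to UGA codons, had 138 and 117 in winter and 103 and 69.5 in summer. Both winter libraries were the higher, with means of 128 ± 14.6 and 86.3 ± 23.7 (SD, n = 2 each) and a fitted log2 change of 0.57 with a standard error of 0.36 (interval -0.27 to 1.40, adjusted p = 0.982, edgeR's quasi-likelihood test).

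**Figure D4:**
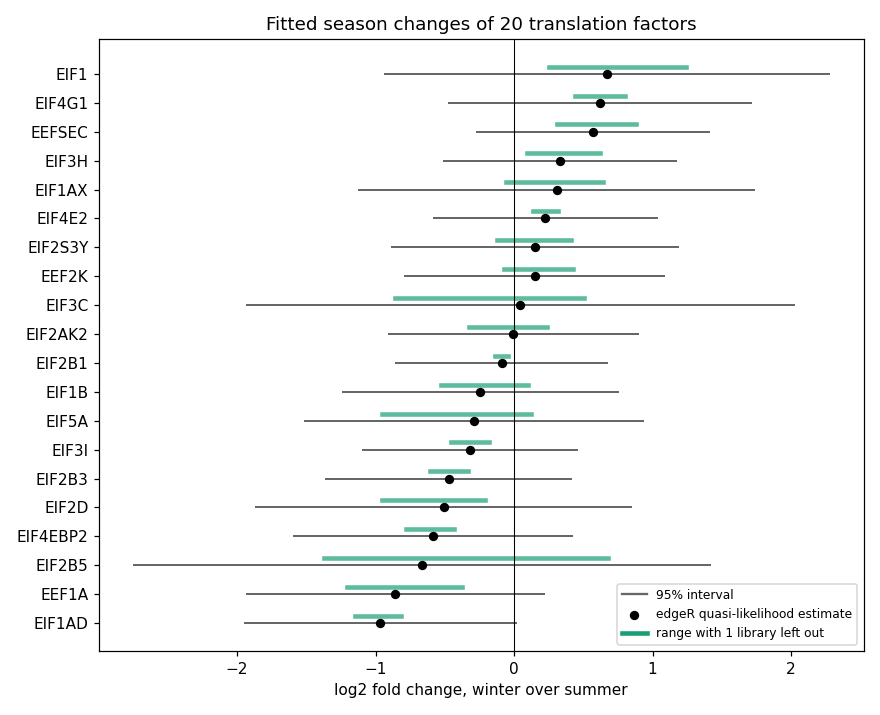
Log2 fold change of winter over summer (x axis) fitted by edgeR's quasi-likelihood model for the 20 translation factors with recovered reads (y axis); points are estimates, grey lines 95% intervals, and green bars the range of the estimate with each of the 4 libraries left out in turn. All 20 intervals include 0, and the green bar keeps its sign in 12 factors.

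The genes around these factors were read from a list of the same pathway, also chosen with earlier results of these data known. Of 46 measured genes 25 had the higher mean in winter, with a median log2 ratio of 0.017. Of the 19 with recovered reads 0 had an unadjusted p under 0.05 by edgeR's quasi-likelihood test, beside 1.99% of all symbols. Among listed genes of and around mTOR, the kinase that releases eIF4E from the 4E-binding proteins, 10 of 13 had the higher mean in winter (median 0.26). Not all of them control mTOR. Over all symbols the winter mean was higher in 46.2%. Among the 10 were LARP1 (832 in winter and 519 in summer), which binds mRNAs with a terminal oligopyrimidine tract, RPS6KB2 (286 and 181), an S6 kinase, RPTOR (822 and 562), the substrate-binding partner of mTOR, and its inhibitor TSC2 (1384 and 926). MTOR itself and RPS6KB1 had smaller log2 ratios of 0.25 and 0.21. DDIT4, a stress-induced inhibitor of mTOR, had 131 and 196, and RICTOR (-0.077) and RHEB (-0.040) were also lower in winter. The libraries of these named genes were not recovered, so their differences have no test. None of the 3 genes of this group with recovered reads (MLST8, MKNK2 and AKT1S1) had a p under 0.05, and winter exceeded summer without overlap in each. Over the 19 pathway genes with recovered reads this was so in 7, beside 13.3% of all symbols, summer exceeded winter in 3, beside 17.2%, and 9 overlapped.

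The response to eIF2 phosphorylation showed no common direction, with 4 of 10 genes higher in winter and a median of -0.023. ATF4, whose translation rises when eIF2 is phosphorylated, had means of 414 in winter and 466 in summer, and its targets ranged from ASNS (170 and 239) to CHAC1 (23.6 and 9.09). CHAC1 was the only measured pathway gene more than 2-fold apart, on 33, 21, 1 and 15 reads, and its interval was -0.81 to 3.59 on the log2 scale. The phosphatase subunits PPP1R15A and PPP1R15B had ratios of 0.26 and -0.36. Of the release and recycling factors 1 of 6 had the higher mean in winter (median -0.099), and of the poly(A)-binding and reinitiation factors 5 of 7 (median 0.055). The hypusine enzymes DHPS and DOHH had ratios of -0.027 and 0.56. Of the mitochondrial translation factors 4 of 8 had the higher mean in winter (median -0.051), and MRRF, the mitochondrial ribosome recycling factor, had the lowest, with both summer libraries above both winter libraries and a fitted log2 change of -0.69 (interval -1.48 to 0.10).

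Ribosomal proteins were the most similar gene classes to set beside the factors. Of 77 cytosolic ribosomal proteins 68 had the higher mean in summer, with a median log2 ratio of -0.39. The 8 elongation factors had the same rounded median, although EEF1A2 (0.58) and EEF2 (0.22) had the higher mean in winter. The 46 measured factors with an EIF symbol had a median of -0.088. The mRNAs of ribosomal proteins and of several elongation factors are known to begin with a terminal oligopyrimidine tract. That tract was not examined here, and any part of it in these ratios was not tested. The 67 mitochondrial ribosomal proteins had a median of -0.10, equal to that of the 56 factors to 2 decimals. These medians come from the same 4 animals and from season means without a spread, so the differences between the classes were not tested.

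**Figure D5:**
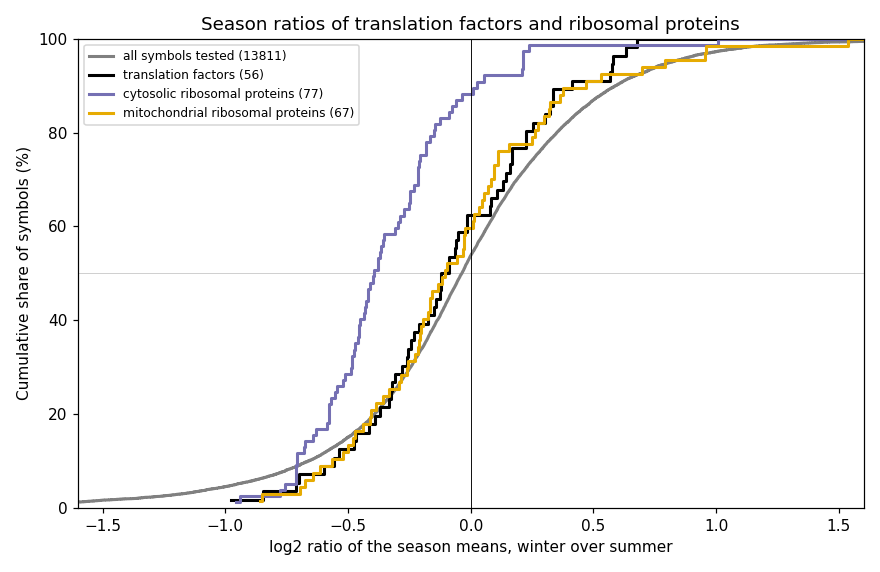
Cumulative share of symbols (y axis, %) against the log2 ratio of the winter to the summer mean (x axis) for all 13811 symbols, 56 translation factors, 77 cytosolic and 67 mitochondrial ribosomal proteins. The curve of the cytosolic ribosomal proteins crosses 50% at -0.39, to the left of the translation factors at -0.10, which run close to the mitochondrial ribosomal proteins and end within 1 log2 unit of 0 on both sides.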

How the data were processed

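RNA from 2 winter and 2 summer supraoptic nuclei was sequenced, and samples were grouped by the season in their labels. Per the labels, the authors used TopHat, HTSeq, DESeq and edgeR. They aligned reads to their own assembly and deposited raw read counts per unnamed gene model, used here for depth alone. For each symbol they deposited a signal, the mean count of a season over DESeq size factors to 6 significant digits. Their fold changes and p-values were not used. Symbols were assigned by the authors, and 57 of the 65 also exist in RefSeq's dromedary annotation. The other 8 were EEF1A, EEF1A1, EEF1AS, EEF1B, EIF1AY, EIF2S3Y, EIF3C and EIF4A3-B, and what they stand for was not checked by sequence. The paper states that fragmentation or duplication in its draft assembly raises the number of predicted genes.

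Whole reads of each library were recovered from the means, using the fixed value of 1 normalised read per library, for 9879 symbols with a single solution. Of 4545 of these with at least 20 reads in each library, at most 3 matched a gene model of the count files, whichever replicate was A or B. Those reaching a mean of 10 in either season were fitted with edgeR 4.0.16 (glmQLFit, glmQLFTest, size factors from the steps) in R 4.3.3, and p-values were adjusted by the Benjamini-Hochberg method. The common biological coefficient of variation was 0.460. Intervals are at 95%. Alternatives used DESeq2 1.42.0 and limma 3.58.1. Scripts were tested on simulated data. The test on recovered reads replaces a fit to the count files. That the 2 libraries of a season are separate animals is taken from the study. The factors named were the core factors of each group, the 5 highest and 5 lowest ratios and any member past the rule of the study, and others were named after their values were seen. The members and lists were chosen with earlier results of these data known. Figures were drawn with matplotlib 3.10.9.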

Additional observations from a re-analysis of the deposited data

How the results depend on the processing

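The median log2 ratio of the 56 factors stayed between -0.13 and -0.067 under every filter, scaling and pseudocount tried, and 19 to 23 factors had the higher winter mean. The count of factors more than 2-fold apart was 0, and became 1 (EIF1AD) with season means rescaled to equal totals and 2 (EIF4A1 and EIF4B, on 7 reads or fewer a season) with no filter on low means. It was 7 at 1.5-fold, and 23 had one mean more than 25% above the other, as had 45.8% of all symbols. On recovered reads, with all 4 libraries kept, the rule of the study was met by 0 factors under every test, scaling, filter and fold threshold. At 2-fold it was met by few of all symbols too, from 0.79% with DESeq2 to 2.2% with total count scaling. The count of factors past an adjusted p of 0.05 also stayed at 0, beside 0 or 1 of all symbols.

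In 9 factors the fitted change reversed its sign under some alternative, and of these EIF2B5 had the largest change in the fit to all libraries (-0.67). EIF2AK2 gave 8.35e-05 with TMM scaling and 0.072 with total counts, EIF2B1 gave 0.0032 with total counts, and EIF3C gave -0.0077 with DESeq2. With 1 library left out the log2 change ranged from -0.075 to 0.43 in EEF2K, -0.061 to 0.64 in EIF1AX, -0.53 to 0.098 in EIF1B, -0.32 to 0.24 in EIF2AK2, -1.37 to 0.68 in EIF2B5, -0.12 to 0.41 in EIF2S3Y, -0.86 to 0.51 in EIF3C and -0.95 to 0.12 in EIF5A. The cause was not tested. In the remaining 144 of 160 refits of single factors the direction was kept.

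Further settings were chosen after the data were seen. Adding the 26 factors with 2 or 3 solutions placed 0 of 46 under an unadjusted p of 0.05 with their most even libraries. With their least even libraries it placed 1 there, EIF1AD, which itself has a single solution. Beside these stood 154 of all 7664 symbols in either setting. Symbols with both means under 100 gave 0 of 16 factors, beside 97 of all 6030 symbols. No paired analysis was possible because the animals slaughtered in winter and in summer were different ones. The recovered libraries also carry no replicate number. With 2 animals a season the smallest two-sided p of an exact permutation test is 0.333.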
